A study of Rattus norvegicus with 18 samples.

Results

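Caloric restriction (CR) is a lasting cut in food intake without malnutrition, and its effect on the miRNAs of aged muscle is the comparison described here. In the gastrocnemius of 28-month-old rats, 604 known miRNA entries were compared between 6 restricted and 6 freely fed animals, and 1 of them, miR-139-5p, rose past the test, from 88.3 ± 16.0 to 155 ± 19.7 CPM (counts scaled to library size; mean ± SD, n = 6 in each group). This call was lost when entries with nearly the same counts were entered once. It was also lost with several other scalings and in most of the fits that left out 1 library. Of the miRNAs of neurons 17 of 19 entries were higher and of those of nerve and its glia 11 of 13, against 51.5% of all known entries. Their median log2 fold changes were 1.30 and 0.79, but 0.50 and 0.38 without the restricted libraries 17 and 18. The 4 entries of miR-483 and miR-675, from the imprinted Igf2 and H19 genes, were lower, as were 293 of all known entries. Of the 4, 1 was at an unadjusted p under 0.05, and for miR-483-3p the freely fed libraries 7 and 8 lay within the restricted range. The abundant miRNAs of striated muscle differed by less than the spread between rats. No entry of those groups passed edgeR's test by itself.

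The members were all entries of the count table with a miRBase-style name and a sum of 10 or more counts across the 12 libraries compared. Of 763 known entries 604 met the rule, while 78 had 1 to 9 counts and 81 had none. Of the 604, 494 were counted in every one of the 12 libraries. The table holds 909 entries in all, with 132 predicted candidates among the 736 entries that entered the test.

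The rats were male Brown Norway animals. Both groups were fed ad libitum until 2 months of age and housed singly from then on. The ad libitum animals (old AL, libraries 7 to 12) continued to feed freely, and the restricted animals (old CR, libraries 13 to 18) received 55% of that intake as a daily ration from 2 months until they were killed at 28 months. Each library is 1 rat, and the 12 libraries are 12 of the 18 in the series, which also holds 6 freely fed rats of 6 months (young AL). Small RNA was sequenced from whole muscle.

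miRNAs are short RNAs that guide a silencing complex to messenger RNAs, mainly through bases 2 to 8 from the 5′ end, the seed. miRNAs with the same seed can pair with the same target sites and are grouped as a family. Many are made mostly in particular cell types, for example miR-1 and miR-133 in striated muscle, miR-124 in neurons, miR-122 in hepatocytes and miR-451 in erythroid cells, so that in a whole muscle their level reflects the cells in the sample as well as their regulation. In such bulk samples fewer cells of a type and less RNA per cell cannot be told apart.

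The sequences below are those on which the comparison turns. They were taken from RefSeq (GRCr8), which held a mature sequence for 551 of the 604 entries (91.2%), with 463 different seeds. Capitals mark the seed. The first set holds miR-139-5p, the miRNA that passed the test, and miR-140-3p, the entry with the lowest p among those lower under CR, neither of which shares its seed with another of the 551.
miR-139-5p: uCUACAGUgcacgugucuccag
miR-140-3p: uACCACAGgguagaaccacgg

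The second set holds a pair with one seed whose members did not go the same way, and the relatives of miR-99a-5p, an entry separated between the groups. miR-193a-3p and miR-193b-3p share their seed, and over the 19 bases of the shorter entry they differ at 1 position, U9C (the base of miR-193a-3p, the position from the 5′ end, the base of miR-193b-3p). miR-100-5p and miR-99b-5p, which share a seed with each other, differ at 4 of 22 positions (A1C, U11A, A16C and U21C).
miR-193a-3p: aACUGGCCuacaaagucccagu
miR-193b-3p: aACUGGCCcacaaaguccc
miR-100-5p: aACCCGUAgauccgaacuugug
miR-99b-5p: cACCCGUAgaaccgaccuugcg

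The third set holds miRNAs of neurons and of nerve, and miR-1298, which is in no list and had one of the lowest p-values in the higher direction. Some of these entries are reverse complements of each other, miR-9b-3p of miR-9a-5p, miR-218b of miR-218a-5p and miR-219b of miR-219a-2-3p, and were counted nearly alike although their seeds differ.
miR-9a-5p: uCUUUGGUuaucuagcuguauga
miR-9b-3p: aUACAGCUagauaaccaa
miR-218a-5p: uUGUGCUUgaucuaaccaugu
miR-218b: cAUGGUUAgaucaagcacaa
miR-219a-2-3p: aGAAUUGUggcuggacaucugu
miR-219b: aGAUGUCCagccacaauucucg
miR-129-5p: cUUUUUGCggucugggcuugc
miR-1298: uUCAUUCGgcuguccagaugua

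Among the 551 sequences 51 pairs were complementary over at least 16 bases, and in 33 of these the lower count over the 12 libraries was 75 percent or more of the higher. It was 97.2% for miR-9a-5p and miR-9b-3p, 92.7% for miR-219a-2-3p and miR-219b and 80.6% for miR-218a-5p and miR-218b. For strand, the setting of the counting is not given in the sources used here, and the 2 entries of such a pair are best read as 1 measurement. The main fit, its adjustment and the counts and medians over entries nevertheless hold both. For the striated muscle, neuronal, nerve and epithelial lists below, counts are also given with such pairs entered once.

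The libraries held 47142870 to 83110905 counts, with medians of 67859987 (old AL) and 69628037 (old CR). The miR-1 family (miR-1-3p, miR-1b and miR-3571), counted with a predicted candidate of nearly the same counts as miR-1b, took 60.7 to 86.8% of the counts in old AL and 74.5 to 83.2% in old CR (exact permutation test of the means, two-sided, p = 0.677). Of the counts of known entries alone, the family took 55.9 to 84.0% and 69.9 to 80.0%. Scaling factors by the trimmed mean of M-values (TMM) ran from 0.648 in AL 11 to 2.19 in AL 7 and from 0.668 to 1.24 in old CR, and CPM are given on this scale. Replicates correlated at a Spearman coefficient of 0.800 to 0.904 across entries. No 2 replicates of a group agreed within sampling noise (lowest chi-square per degree of freedom 1565). This tells only that no 2 of them are copies of the same counts, and the 12 were counted as separate samples by their labels. A count of 0 allows up to 3 counts, at most 0.0669 CPM in AL 11, an allowance for counting error alone.

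Over all 604 known entries the median log2 fold change of old CR over old AL was 0.01, with 311 entries higher (51.5%) and 293 lower. This balance depended on the scaling. The median was −0.09 with upper-quartile factors (39.6% of entries higher), −0.25 with library totals alone (28.1%) and −0.10 with totals that leave out the miR-1 family (38.4%). List medians are therefore read below against that of all known entries. By edgeR's quasi-likelihood test with Benjamini-Hochberg adjustment over the 736 entries, 1 known entry (0.166%) reached an adjusted p of at most 0.05 with a fold change of at least 1.5. At an unadjusted p under 0.05, 42 entries (6.95%) were higher and 21 (3.48%) were lower. With DESeq2 8 known entries (1.32%) passed both thresholds, namely miR-139-5p, miR-129-5p, miR-1298, miR-452-5p, miR-9a-5p, miR-9a-3p and miR-9b-3p with higher levels and miR-193b-3p with a lower one. The 8 include miR-9a-5p and miR-9b-3p, which are 1 measurement.

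**Figure D1:**
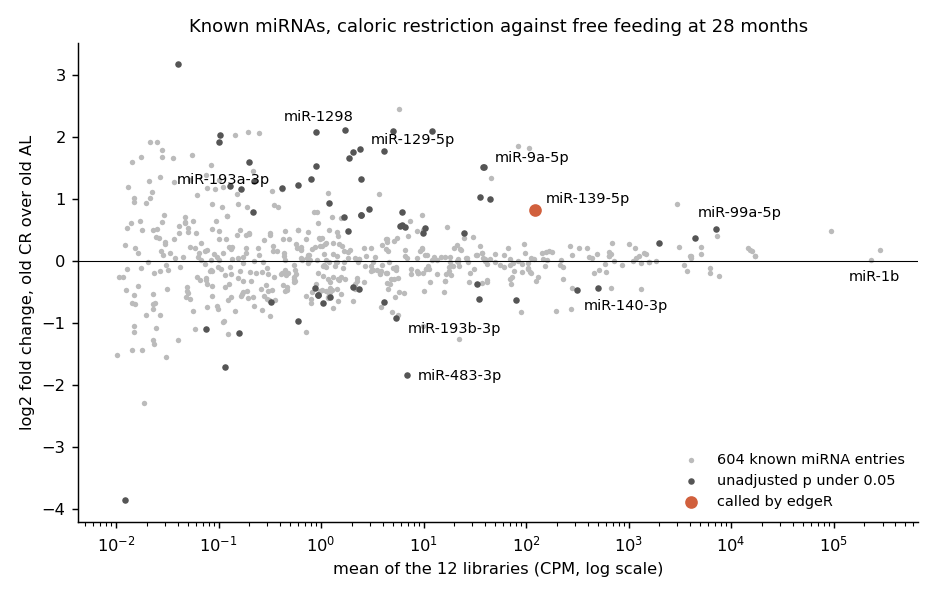
Each point is 1 of 604 known miRNA entries, with the mean of the 12 libraries in CPM on a log axis and the log2 fold change of old CR over old AL; dark points had an unadjusted p under 0.05 and the orange point was called by edgeR. The most abundant entries lie between −0.24 (miR-206-3p) and 0.48 (miR-1-3p), and the less abundant miR-148a-3p lies at 0.92. miR-139-5p is called at a log2 fold change of 0.81. The low end of the plot is miR-471-3p, which had 0 counts in all 6 old CR libraries. It stayed near the limit of a count of 0 in old AL.

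miR-139-5p is encoded within Pde2a, the gene of a phosphodiesterase that degrades cyclic nucleotides, and is known as a suppressor of growth signalling in tumours. Its level ran from 68.5 to 111 CPM in old AL (median 89.6) and from 128 to 178 CPM in old CR (median 150.2). Every restricted rat lay above every freely fed one. miR-139-5p rose by a log2 fold change of 0.81 (SE 0.143, edgeR adjusted p = 0.0377). The adjusted p under DESeq2 was 4.1e-07. A predicted candidate with nearly the same counts passed with it, so the 2 calls of the whole table rest on 1 set of reads. The call was lost in both fits that left this candidate out. Its adjusted p was 0.0686 with known entries only and 0.123 with shared entries entered once.

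The opposite arm of the same hairpin, miR-139-3p, was scarce and differed little, at 2.42 CPM in old AL and 2.79 CPM in old CR (log2 fold change 0.21, edgeR adjusted p = 0.793). The log2 ratio of the 5p to the 3p arm was 5.20 ± 0.147 in old AL and 5.83 ± 0.523 in old CR (SD, n = 6 in each), a difference of 0.63, and the ranges met at 5.37 and 5.22. The call of miR-139-5p was lost when scaling factors other than TMM and RLE were used (adjusted p = 0.165 to 0.628) and when any 1 of 9 of the 12 libraries was left out (0.0767 to 0.132). Its direction was the same in all of these fits, with a log2 fold change of 0.54 to 0.89.

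**Figure D2:**
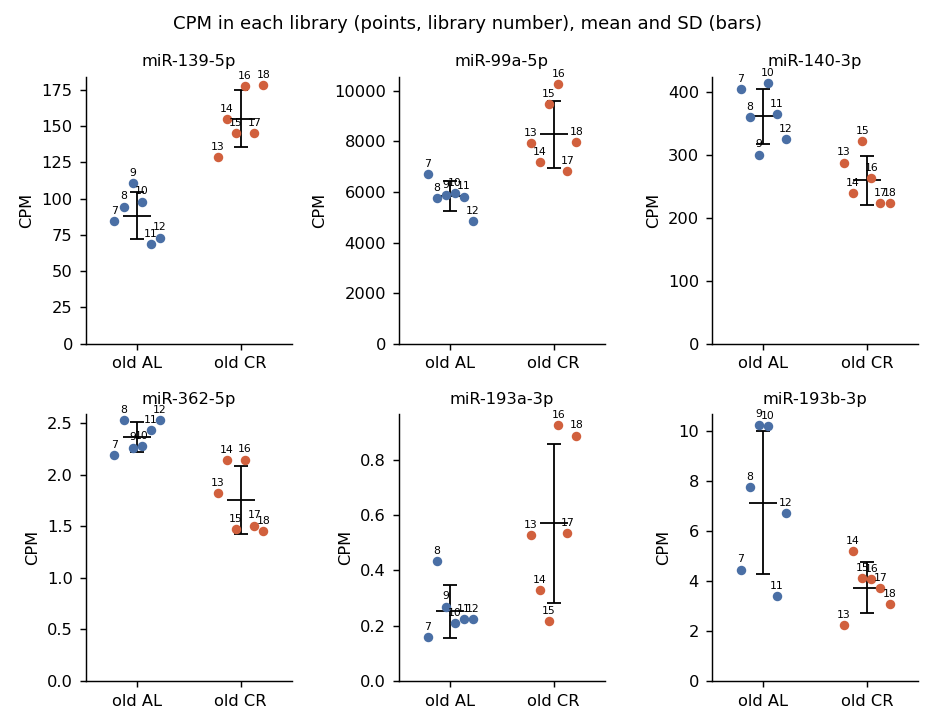
CPM of 6 miRNAs in each library (points, with the library number), with the mean and SD of each group of 6 rats (bars). miR-139-5p and miR-99a-5p are higher and miR-362-5p is lower in every old CR library than in every old AL library, and miR-140-3p is lower in 5 of 6; miR-193a-3p and miR-193b-3p, which share a seed, lie in opposite directions.

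Complete separation of the groups was seen for 2 of the 604 entries in the higher direction (0.331%) and 1 in the lower direction (0.166%). The second in the higher direction was miR-99a-5p, a member of the miR-99/100 family, which is known to target the growth kinase mTOR. It ran from 4833 to 6695 CPM in old AL (median 5852) and from 6824 to 10274 CPM in old CR (median 7962). The groups did not overlap, but the entry missed the test (log2 fold change 0.51, SE 0.127, edgeR adjusted p = 0.319). Its adjusted p under DESeq2 was 0.00216, and its fold of 1.42 was under the minimum of 1.5.

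Its relatives miR-100-5p and miR-99b-5p were not higher under CR. miR-100-5p was at 597 CPM in old AL and 573 CPM in old CR (log2 fold change −0.06), and miR-99b-5p at 254 and 208 CPM (−0.29). The log2 ratio of miR-99a-5p to miR-100-5p, a measure within each library that does not depend on scaling, ran from 3.06 to 3.43 in old AL and from 3.68 to 4.02 in old CR. Against miR-99b-5p it ran from 4.33 to 4.68 and from 4.99 to 5.68. In both ratios the restricted rats lay above all freely fed rats, by 0.56 and 0.80 in the mean. These ratios were formed after the values were seen.

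miR-362-5p, encoded within the chloride channel gene Clcn5, was the entry separated in the lower direction. It was rare, at 2.19 to 2.53 CPM in old AL and 1.45 to 2.15 CPM in old CR. The log2 fold change was −0.43 (SE 0.155, edgeR adjusted p = 0.392). Its adjusted p under DESeq2 was 0.0338, with a change under the 1.5-fold minimum. The 2 groups were set apart by a gap that is narrow beside their ranges.

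miR-140-3p had the lowest p among the entries lower under CR. It is encoded within Wwp2, the gene of a ubiquitin ligase, and is best known from cartilage. The level was 301 to 414 CPM in old AL (median 363) and 224 to 322 CPM in old CR (median 251), and 5 of the 6 restricted rats lay below all freely fed ones. The log2 fold change was −0.48 (SE 0.127, edgeR adjusted p = 0.392). Its adjusted p under DESeq2 was 0.0189, with a change under the 1.5-fold minimum. The other arm, miR-140-5p, was at 21.1 CPM in old AL and 24.2 CPM in old CR, so that only the 3p arm was lower in the mean.

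The pair miR-193a-3p and miR-193b-3p went in opposite directions although 1 base outside the seed sets them apart over the compared length. miR-193b-3p, of which brown fat is a known source, ran from 3.39 to 10.3 CPM in old AL (median 7.26) and from 2.24 to 5.20 CPM in old CR (median 3.91). miR-193a-3p was rarer, at 0.158 to 0.435 CPM (median 0.223) and 0.216 to 0.926 CPM (median 0.532). The ranges of both overlapped between the groups.

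The log2 fold changes were −0.93 for miR-193b-3p (SE 0.298) and 1.17 for miR-193a-3p (SE 0.383), each with an edgeR adjusted p of 0.392. The log2 ratio of miR-193a-3p to miR-193b-3p was higher by 1.92 in old CR, from −5.57 to −3.86 in old AL and from −4.21 to −1.79 in old CR. These ranges overlapped only between −4.21 and −3.86.

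Of the other entries with the lowest p in the higher direction, miR-1298, which is in no list, lies within Htr2c, the gene of a serotonin receptor. It ran from 0.139 to 1.41 CPM in old AL (median 0.490) and from 0.845 to 5.00 CPM in old CR (median 2.77), and 5 of 6 restricted rats exceeded all freely fed ones (log2 fold change 2.11, SE 0.608, edgeR adjusted p = 0.392). The neuronal miR-129-5p ran from 0.375 to 1.83 CPM and from 1.24 to 7.94 CPM, with a log2 fold change of 1.79 (SE 0.533). In both, CR 17 and CR 18 were among the 3 highest of their group.

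miR-30d-5p, an abundant miRNA of a broadly expressed family, ran from 3229 to 4753 CPM in old AL and from 4690 to 5131 CPM in old CR (log2 fold change 0.37, SE 0.120). Its restricted rats lay close together, and 5 of 6 were above all freely fed rats. The adjusted p of miR-30d-5p under DESeq2 was 0.0198, with a change under the 1.5-fold minimum. miR-452-5p was at 0.825 ± 0.147 and 1.58 ± 0.691 CPM (log2 fold change 0.94, SE 0.284) and miR-380-3p, from the imprinted Dlk1-Dio3 region, at 0.0980 ± 0.0339 and 0.297 ± 0.217 CPM (1.59, SE 0.525). All 3 had an edgeR adjusted p of 0.392.

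In the lower direction, miR-23a-3p was the most abundant, at 484 to 802 CPM in old AL (median 549) and 347 to 535 CPM in old CR (median 412). Its log2 fold change was −0.45 (SE 0.147), and 5 of 6 restricted rats lay below all freely fed ones. The remaining entries of lowest p were lower by log2 fold changes of −0.37 (miR-532-5p), −0.46 (miR-674-5p), −0.62 (miR-423-5p), −0.97 (miR-1193-3p), −1.17 (miR-381-3p) and −1.72 (miR-6215). They shared the edgeR adjusted p of 0.392, and miR-381-3p, miR-1193-3p and miR-6215 were under 1 CPM in both means.

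Some miRNAs of this muscle had also been chosen for RT-qPCR. These 7 and the RT-qPCR reference were compared here in the sequencing counts with an exact two-sided permutation test on log2 CPM, without adjustment over the 8. The set was chosen with results of these libraries known, so the exact permutation test only describes these values and is no independent support. miR-140-3p differed by −0.48 (exact permutation test, p = 0.00433, where the smallest p that 6 against 6 allows is 0.00216). The other 7 gave p-values of 0.184 to 0.838. Their differences were −0.26 for the hepatocyte miRNA miR-122-5p, −0.14 for miR-96-5p and −0.43 for miR-182 of the sensory miR-183 cluster, −0.63 for the islet miRNA miR-375-3p (used because miR-375-5p had 0 counts in the 12 libraries), −0.36 for miR-20a-5p, 0.71 for miR-31a-5p and 0.07 for the reference miR-101a-3p. The edgeR adjusted p of these 7, over the whole table, lay between 0.437 and 0.978.

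The miRNAs that define striated muscle were counted at high levels in every library, as the label gastrocnemius calls for. miR-1b and miR-1-3p are closely related, and miR-3571 is complementary to them over 16 and 21 bases, so the 3 entries may share reads. miR-3571, miR-1b and miR-1-3p were at 268252 ± 125250, 229847 ± 115253 and 78771 ± 30101 CPM in old AL. In old CR they were at 301984 ± 93183, 232088 ± 72731 and 109813 ± 36474 CPM. None differed beyond the spread (log2 fold changes 0.17, 0.01 and 0.48; edgeR adjusted p = 0.530 to 0.998).

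miR-133a-3p, which regulates myoblast proliferation and is made from the same transcripts as miR-1, was at 16712 ± 4917 CPM in old AL and 17603 ± 3698 CPM in old CR (log2 fold change 0.07, SE 0.211). miR-206-3p, a miRNA of satellite cells and regenerating fibres, ran from 4250 to 17534 CPM and from 2860 to 14947 CPM (−0.24, SE 0.423). The arms of miR-208a, a miRNA of the heart, did not reach 10 counts. miR-499-5p, encoded in the myosin gene Myh7b and known from slow fibres, ran from 115 to 1081 CPM in old AL and from 103 to 492 CPM in old CR. miR-208b-3p, in the slow myosin gene Myh7, ran from 1.72 to 29.7 CPM and from 2.38 to 15.9 CPM. AL 7 was the highest library for miR-206-3p, miR-499-5p and miR-208b-3p, and CR 13 was the highest of the restricted group.

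Of the 14 striated muscle entries tested 6 were higher and 8 lower, 0 at an unadjusted p under 0.05 in either direction, with a median log2 fold change of −0.06. With entries that share counts or are reverse complements entered once, 3 of 10 were higher and 7 lower, with a median of −0.17. The 4 entries of miR-208b and miR-499 were all lower, with a median of −0.50, but without AL 7 the median was 0.01 and 2 of the 3 entries then tested were higher. The medians of the miR-1 family (0.09) and of miR-133a and miR-133c (0.07) were −0.06 and −0.03 with upper-quartile factors, which shift all entries, and there lay 0.04 and 0.06 above the median of all known entries. miR-486, made in muscle and in erythroid cells, was at 768 ± 295 and 568 ± 127 CPM (−0.44, SE 0.259, edgeR adjusted p = 0.503).

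The miRNAs of neurons and nerve stood well above the median of all known entries. The lists of neuronal, nerve and glial, activity-induced and neuroendocrine miRNAs hold 48 entries, of which 41 were tested. Of these 35 were higher and 6 lower, against 51.5% higher among all known entries. At an unadjusted p under 0.05, 17 were higher and 0 lower, against 6.95% and 3.48% of all known entries. The median log2 fold change was 0.79 against 0.01. With entries that share counts or are reverse complements entered once, 30 of 36 were higher, with a median of 0.69. Of these 36, 13 (36.1%) were higher at an unadjusted p under 0.05, against 6.13% of all known entries entered once. No member was called by edgeR. DESeq2 called 4 entries of the neuronal list, of miR-9a, miR-9b and miR-129, against 1.32% of all known entries.

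miR-9a-5p, a miRNA of neural progenitors and neurons, ran from 10.2 to 32.4 CPM in old AL (median 21.4) and from 17.4 to 135.5 CPM in old CR (median 42.1). It was highest in CR 17, next highest in CR 18, and above all freely fed rats in 4 of 6. The log2 fold change was 1.51 (SE 0.502, edgeR adjusted p = 0.392). Its other arm, miR-9a-3p, ran from 0.759 to 2.99 CPM and from 1.42 to 16.6 CPM (1.77, SE 0.575), and the ratio of the arms differed by −0.20 on the log2 scale.

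miR-124-3p, a classic marker of neurons, was counted in all 12 libraries, at 0.569 to 2.33 CPM in old AL (median 1.58) and 0.899 to 8.98 CPM in old CR (median 2.94). It was again highest in CR 17 and CR 18 (log2 fold change 1.32, SE 0.566, edgeR adjusted p = 0.392). miR-383-5p had a log2 fold change of 1.52 (SE 0.544) and miR-346 of 1.32 (SE 0.601). miR-128-3p, the most abundant entry of the list and one that muscle also expresses, did not follow, at 476 CPM in old AL and 511 CPM in old CR (0.10, SE 0.226). miR-873-3p was at 0 in 3 of 6 old AL and 2 of 6 old CR libraries.

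Among miRNAs of nerve and its glia, miR-218a-5p is encoded in the axon guidance genes Slit2 and Slit3 and is known from motor neurons. It ran from 14.9 to 36.7 CPM in old AL (median 33.2) and from 23.5 to 119.8 CPM in old CR (median 54.5), with CR 16 the highest (log2 fold change 1.0, SE 0.389, edgeR adjusted p = 0.392). miR-219a-2-3p, of myelinating glia, ran from 0.583 to 1.42 CPM and from 0.845 to 11.0 CPM (1.75, SE 0.631). Its highest value, in CR 17, stood far above the next, 2.98 CPM in CR 18.

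miR-338-5p, encoded in the neuronal kinase gene Aatk and known from Schwann cells and oligodendrocytes, was less variable, at 3.74 to 6.93 CPM in old AL and 4.98 to 10.6 CPM in old CR (log2 fold change 0.58, SE 0.203). The highest library was here CR 15, which had the lowest miR-9a-5p of its group. miR-137-3p and miR-153-3p were under 0.5 CPM in every library, with log2 fold changes of 1.91 and 2.02. Of the 13 nerve and glial entries 11 were higher, 8 at an unadjusted p under 0.05, with a median of 0.79. With reverse complements entered once, 9 of 11 were higher, 6 at an unadjusted p under 0.05, with a median of 0.74. The neuronal list had 17 of 19 entries higher, 9 at an unadjusted p under 0.05, and 14 of 16 and 7 when entered once, with medians of 1.30 and 1.31.

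**Figure D3:**
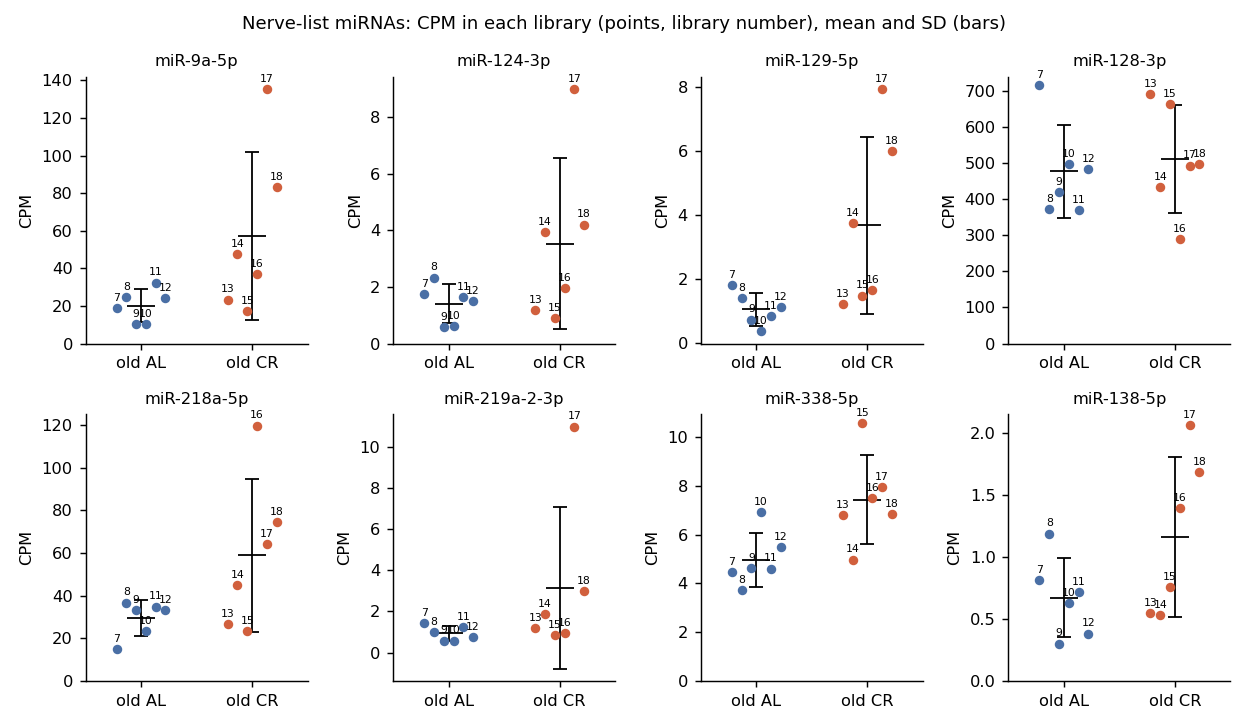
CPM of 8 miRNAs of the nerve lists in each library (points, with the library number), with the mean and SD of each group of 6 rats (bars). miR-9a-5p, miR-124-3p, miR-129-5p and miR-219a-2-3p are highest in CR 17, miR-218a-5p is highest in CR 16 and miR-338-5p in CR 15, and miR-128-3p shows no difference.

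How far the nerve lists stood from the rest depended on libraries 17 and 18. Without CR 17 the neuronal median was 0.79, and without CR 17 and CR 18 together it was 0.50, with 1 entry at an unadjusted p under 0.05 in place of 9. For nerve and glial miRNAs the medians were 0.63 and 0.38. Over all nerve lists 29 of the 38 entries tested without both libraries were still higher, with a median of 0.30 and 2 at an unadjusted p under 0.05. The direction of the neuronal and the nerve and glial medians was the same with each of the scalings tried, but the p-values were not. With library totals alone, 4 neuronal entries were higher at an unadjusted p under 0.05 in place of 9. For nerve and glial entries it was 0 in place of 8, and over all nerve lists 4 in place of 17. Among all known entries, in either direction, 32 reached that p in place of 63. CR 18 had the lowest miR-133a-3p (11931 CPM) and miR-206-3p (2860 CPM) of its group, and the part that the content of nerve in each sample has in these values was not tested.

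Entries that mark epithelium had a larger median, but 1 library set it. Of 13 tested entries of miR-200, miR-141, miR-429, miR-203 and miR-205, 12 were higher, 3 at an unadjusted p under 0.05, with a median log2 fold change of 1.85. Entered once, 11 of 11 were higher, 3 at an unadjusted p under 0.05, with a median of 2.02. The summed level of the list ran from 63.2 to 379 CPM in old AL and from 48.1 to 1934 CPM in old CR. In CR 14 miR-203a-3p, a miRNA of keratinocytes, was at 826 CPM, miR-205 at 253 CPM and miR-200b-3p at 95.0 CPM. Without CR 14 the median was 0.08, with 7 of 13 entries higher and 0 at an unadjusted p under 0.05.

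All 3 miR-31 entries were higher as well, and the same library was the highest. miR-31a-5p was at 5.65 CPM in CR 14 and between 0.557 and 1.09 CPM in the other restricted rats, against 0.267 to 1.60 CPM in old AL. Its log2 fold change was 1.09 (SE 0.645, edgeR adjusted p = 0.503), and 0.07 without CR 14, where the median of the list was 0.15 in place of 1.09. miR-205 was counted in all 12 libraries, and whether skin or another epithelium entered the samples was not tested.

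The miRNAs of red blood cells were lower in old CR in all 4 entries, with a median log2 fold change of −0.59. miR-451-5p ran from 5.24 to 9.74 CPM in old AL and from 2.95 to 7.79 CPM in old CR, and 4 of 6 restricted rats lay below all freely fed ones (log2 fold change −0.50, SE 0.264, edgeR adjusted p = 0.440). miR-144-5p, from the same transcript, had a log2 fold change of −0.68 (SE 0.273, edgeR adjusted p = 0.392). The median was negative whichever library was left out.

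The leukocyte miRNAs (miR-142, miR-150, miR-155 and miR-223) were also lower in all 8 entries, with a median of −0.27, but this turned on 1 rat. In AL 8 miR-142-3p was at 68.6 CPM, while the other freely fed rats had 1.66 to 3.05 CPM. In CR 18 it was at 25.5 CPM, above the other restricted rats (0.396 to 5.43 CPM). Without AL 8, 7 of the 8 entries were higher and the median was 0.36. Of the inflammation miRNAs, miR-21-5p was at 1522 CPM in old AL and 1115 CPM in old CR (log2 fold change −0.45, SE 0.297) and miR-146a-5p at 323 and 238 CPM (−0.44, SE 0.219), neither past the test.

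The hepatocyte miRNA miR-122-5p ran from 48.2 to 761 CPM in old AL (median 190.0) and from 100.2 to 183 CPM in old CR (median 146). The highest value was that of AL 9, and the restricted group lay wholly within the range of the freely fed one. The 3 miR-122 entries had a median log2 fold change of −0.81, and of −0.08 without AL 9. The liver and gut miRNAs miR-192-5p and miR-194-5p were at −0.10 and −0.09.

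The 4 miRNAs of the imprinted region that holds Igf2, a fetal growth factor gene, and the noncoding RNA H19 were all lower, with a median of −0.81. miR-483-3p, encoded in Igf2, ran from 0.870 to 21.7 CPM in old AL (median 11.9) and from 0.432 to 8.80 CPM in old CR (median 2.00). Its lowest freely fed rats, AL 7 and AL 8, lay within the range of the restricted ones, while the other 4 had 7.91 to 21.7 CPM. The log2 fold change was −1.84 (SE 0.826, edgeR adjusted p = 0.414).

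miR-483-5p, miR-675-3p and miR-675-5p, of which the latter 2 are cut from H19, had log2 fold changes of −0.88, −0.75 and −0.65 (edgeR adjusted p = 0.554 to 0.678). The median of the 4 ran from −1.04 to −0.63 as single libraries were left out and was −0.45 without CR 17 and CR 18, and it was negative with every scaling.

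**Figure D4:**
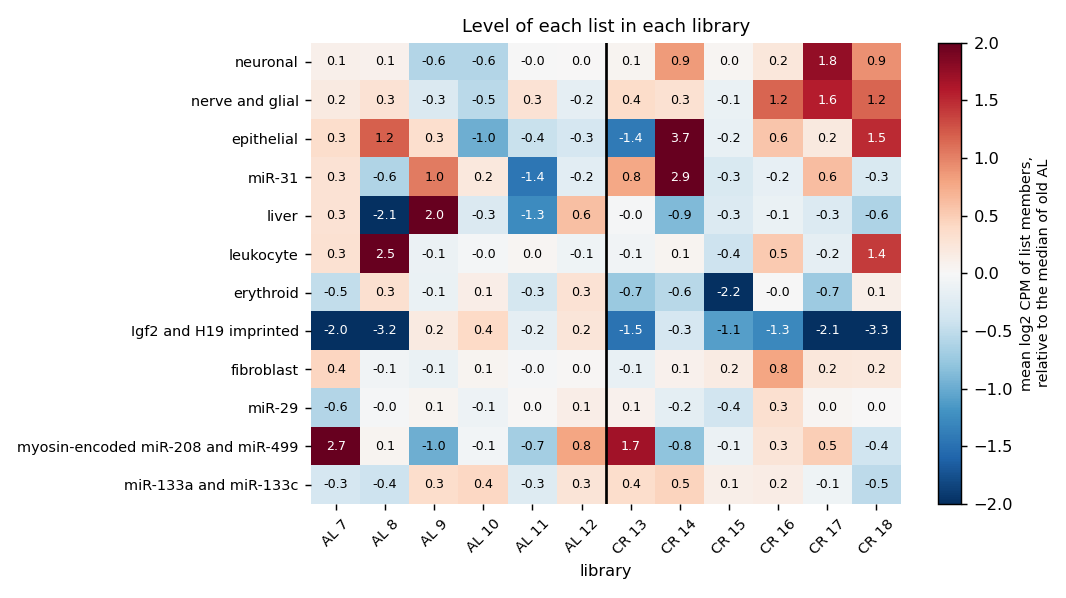
Mean log2 CPM of the members of 12 lists in each of the 12 libraries, as the difference from the median of the 6 old AL libraries (color scale, held at −2 and 2). The neuronal and nerve rows are highest in CR 17, the epithelial and miR-31 rows in CR 14, the leukocyte row in AL 8 and the liver row in AL 9, and AL 7 and AL 8 are the low old AL libraries of the Igf2 and H19 row.

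The imprinted Dlk1-Dio3 region, which holds a large cluster of miRNAs, had entries in both directions. Of 75 tested entries 36 were higher and 39 lower, with 3 at an unadjusted p under 0.05 in each direction and a median log2 fold change of −0.08. Its most abundant member, miR-127-3p, was at 71.6 CPM in old AL and 68.1 CPM in old CR (−0.07, SE 0.290). miR-434-5p was at 4.52 and 7.80 CPM (0.79, SE 0.310, edgeR adjusted p = 0.392). AL 8 was the lowest library of its group for this list, and the split depended on single libraries. Without AL 8, 28 entries were higher and 46 lower, with 1 and 16 at an unadjusted p under 0.05. Without CR 17, 23 were higher and 50 lower, with 1 and 5.

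The let-7 family, which accumulates in differentiated tissue, had 8 entries higher and 13 lower, with a median of −0.12. let-7c-5p, made in part from the same host transcript as miR-99a, ran from 1552 to 2074 CPM in old AL and from 1817 to 2552 CPM in old CR (log2 fold change 0.28, SE 0.111, edgeR adjusted p = 0.392). let-7b-3p was at 6.36 and 3.60 CPM (−0.82, SE 0.392). Without CR 17 and CR 18 the let-7 median was 0.08.

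The cell-cycle family of miR-15 and miR-16 was lower in 12 of 13 entries, but by little, with a median of −0.17; its main strand miR-16-5p was at 156 CPM in old AL and 147 CPM in old CR (−0.08, SE 0.170). The 4 entries of miR-221 and miR-222, which act on myoblast proliferation, were also all lower, with a median of −0.21. The miR-17-92 and miR-106b-25 clusters had 8 of 20 entries higher and a median of −0.13. None of these members passed the test.

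The miR-30 family had 8 of 11 entries higher and a median of 0.20. With library totals alone, which shift all entries, the median was −0.01 and lay 0.24 above that of all known entries. miR-30a-5p was at 6234 ± 1398 and 8231 ± 1694 CPM (log2 fold change 0.40, SE 0.186, edgeR adjusted p = 0.414), while miR-30c-5p was at 6415 and 5909 CPM (−0.12, SE 0.180). miR-148a-3p was at 2064 ± 2089 CPM in old AL and 3892 ± 2889 CPM in old CR (0.92, SE 0.591, edgeR adjusted p = 0.552), with AL 8 and CR 18 the highest of their groups.

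Metabolic miRNAs, and the other entries among the 10 most abundant, showed small differences. miR-378a-3p, encoded in the gene of a mitochondrial coactivator, was at 14418 ± 3559 and 16245 ± 2064 CPM (log2 fold change 0.17, SE 0.174). miR-3557-5p was at 15050 ± 3708 and 16841 ± 2195 CPM (0.16, SE 0.174), and miR-26a-5p, a broadly expressed miRNA, at 13662 ± 2307 and 15743 ± 1810 CPM (0.20, SE 0.135). miR-103-3p was at 219 and 221 CPM (0.01, SE 0.148). The median of the metabolic list was 0.11, and with library totals alone −0.14, which is 0.11 above that of all known entries.

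The fibroblast miRNAs miR-199a and miR-214 were higher in all 3 entries (median 0.21). With library totals alone their median was −0.18, which is 0.07 above that of all known entries. Among the miR-29 family, which targets collagens, 3 of 6 entries were higher, and miR-29a-3p was at 1342 and 1314 CPM (log2 fold change −0.03, SE 0.123). The medians of the vascular list (−0.01), the miR-29 family (0.05), the miR-181 family (0.04), the miR-23, miR-27 and miR-24 clusters (0.04) and the miR-99, miR-100 and miR-125 families (0.05) were close to that of all known entries, and the last 4 were negative with upper-quartile factors, where they lay 0.01, 0.02, 0.04 and 0.04 above that of all known entries. The 257 tested entries in no list had 126 higher and 131 lower, with 12 and 13 at an unadjusted p under 0.05 and a median of −0.01.

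**Figure D5:**
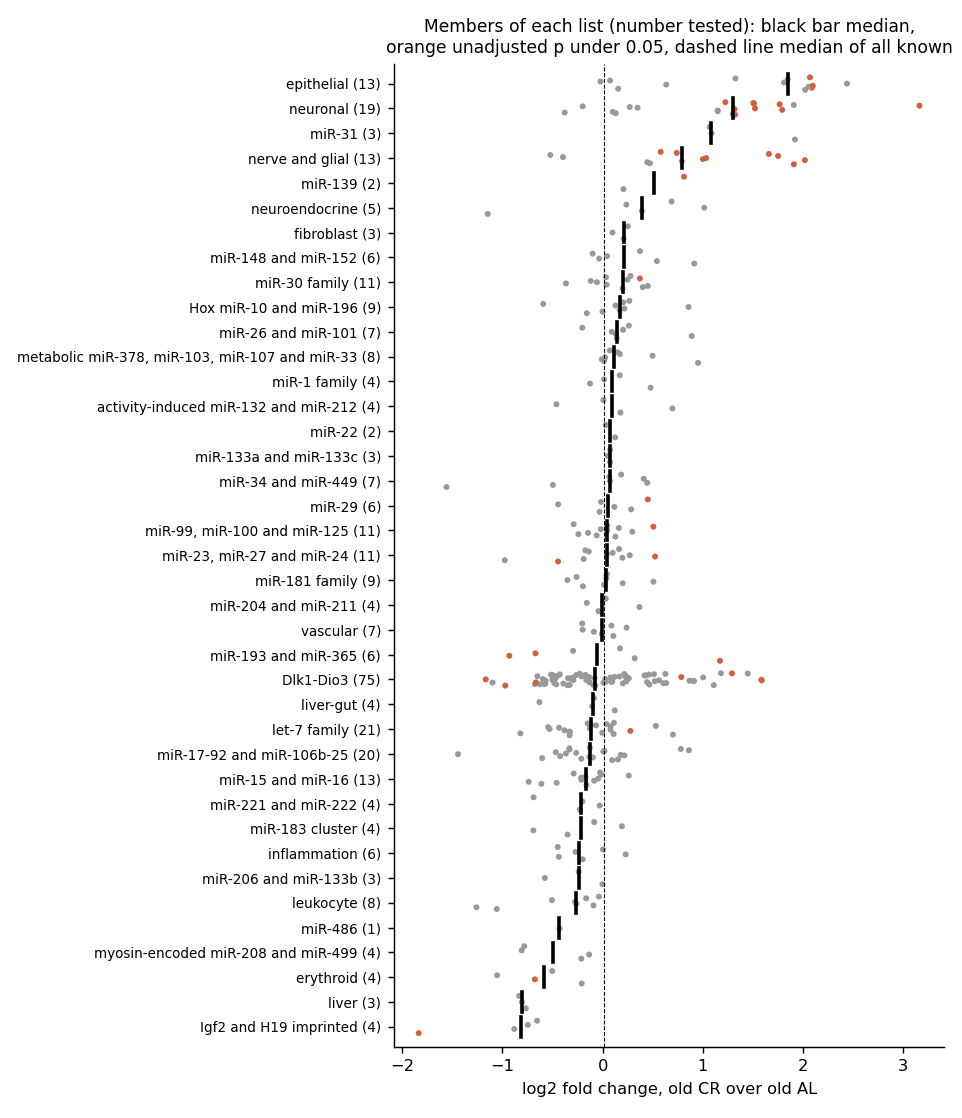
Log2 fold change of old CR over old AL for each tested member of 39 lists (points, orange at an unadjusted p under 0.05), sorted by the median of the list (black bar); the dashed line is the median of all 604 known entries, 0.01. The epithelial (1.85), neuronal (1.30), miR-31 (1.09; 0.15 without CR 14) and nerve and glial (0.79) medians lie farthest to the right, and those of the Igf2 and H19 (−0.81), liver (−0.81) and erythroid (−0.59) lists farthest to the left.

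Summing counts over entries with the same seed gave 605 families and single entries, and 0 (0%) of them passed the thresholds in edgeR. miR-139-5p, the only entry of its seed among those with a sequence, had an adjusted p of 0.0804 in this fit, in which entries with shared counts were entered once.

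Beside the freely fed young rats, on a scale set over all 18 libraries, miR-139-5p was at 84.4 ± 21.2 CPM in young AL (SD, n = 6), 89.7 ± 16.2 in old AL and 157 ± 19.4 in old CR. miR-99a-5p was at 8433 ± 2139, 5923 ± 626 and 8371 ± 1303 CPM in the same order. miR-140-3p was at 234 ± 40.5, 368 ± 45.4 and 263 ± 39.5 CPM.

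In mean level, old CR thus lay above both freely fed groups for miR-139-5p and close to young AL for miR-99a-5p and miR-140-3p. miR-193b-3p was at 3.03 ± 1.30, 7.26 ± 2.90 and 3.79 ± 1.02 CPM and miR-483-3p at 1.75 ± 1.09, 11.0 ± 8.67 and 3.07 ± 3.01 CPM, again with old CR nearer to young AL. miR-9a-5p was at 12.0 ± 4.37, 20.4 ± 8.88 and 58.0 ± 45.6 CPM, with old CR the farthest from young AL. These levels are set side by side as a description without a test, because comparisons by diet and by age share the old AL libraries.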

How the data were processed

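Gastrocnemius small RNA of 18 rats was sequenced, 1 library each; 12 were used here. The authors deposited a table of raw counts per miRNA entry, without normalization. Per the labels, the library kit was strand-specific, and the submitters' processing notes name cutadapt 1.2.1, Bowtie2 2.4.0 and Rnor_6.0. For the miRBase release, the treatment of strand and multiply matching reads, the choice made is not given in the sources used here. All columns were matched to samples (0 unused).

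Entries with at least 10 counts over the 12 libraries (736) were normalized with TMM and fitted with edgeR 4.0.16 in R 4.3.3 (glmQLFit with robust estimation, glmQLFTest; old CR against old AL, no covariate), with Benjamini-Hochberg adjustment over all of them. Calls needed a 1.5-fold change or more and an adjusted p no higher than 0.05. SE is the size of the log2 fold change divided by the square root of F. The level of a list is the mean log2 CPM of its members (mean of at least 0.1 CPM, prior count 0.5). DESeq2 1.42.0 was an alternative. Exact permutation tests ran over 924 arrangements of 6 against 6 in scipy 1.17.1; the adjustment over the 8 RT-qPCR miRNAs is not given, because that set was chosen with results of these libraries known. The fit was first tested on simulated counts. There, 6.12% of 98 entries with a 2-fold change and 54.3% of 92 with a 4-fold change were called, with 0 false calls. An entry that missed the test is therefore not shown to be unchanged. Host genes are overlaps in the RefSeq annotation of GRCr8.

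The members and the lists were chosen with earlier results of these data known. Entries named are those called, the 10 with the lowest p in each direction, the 10 most abundant, the separated ones, the RT-qPCR set and list members (for longer lists, the 3 most abundant and the 2 of lowest p in each direction, with some further members chosen after their values were seen). Alternatives were other scalings, filters, tests and left-out libraries; leaving out CR 17 and CR 18 together and entering reverse complements once were added after the data were seen.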

Additional observations from a re-analysis of the deposited data

Results flagged for a closer look

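In 14 of 134 groups of 6 examined, the highest or the lowest library stood far from the other 5 by Dixon's test at the 95% level. On average, chance alone flags about 1 in 20 such groups. The groups are not independent, because a miRNA and the list that holds it share reads, so the 14 are no test of an excess. Values are log2 CPM, or the mean log2 CPM of a list's members, and no explanation was tested. AL 7 was the highest for miR-23a-3p (9.65), the fibroblast list (7.83) and the miR-23, miR-27 and miR-24 list (6.14), and the lowest for miR-20a-5p (4.44) and the miR-29 list (3.74). AL 8 was the lowest for miR-381-3p (−3.71), miR-1193-3p (−1.98) and the Dlk1-Dio3 list (−1.28), and the highest for the leukocyte list (4.56) and the miR-148 and miR-152 list (5.62). CR 14 was the highest for miR-31a-5p (2.50) and the miR-31 list (1.0). CR 15 was the lowest for the erythroid list (−1.57) and the miR-26 and miR-101 list (5.72). AL 7 and AL 8 thus account for 5 of the 14 each, and AL 7 also has the highest TMM factor (2.19) and the lowest share of counts for the miR-1 family with the predicted candidate that has nearly the counts of miR-1b (60.7%).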

How the results depend on the processing

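The count of called known entries, 1 in the comparison as reported, was 0 with upper-quartile factors, library totals alone, totals without the miR-1 family, no robust estimation, known entries only, shared entries entered once, without AL 7 and AL 11 together and, in a fit added after the data were seen, without CR 17 and CR 18 together (lowest adjusted p 0.280 there). It was 8 with DESeq2 and 5 with DESeq2 without its filters, and 0 to 1 as single libraries were left out. The entry was miR-139-5p with RLE factors, filterByExpr, no filter and a single fit over the 3 groups (edgeR adjusted p = 0.0249 to 0.0438) and without AL 9, CR 13 or CR 15; elsewhere its adjusted p ran to 0.628. The cause was not tested. Seed families called were 0, and 1 with RLE factors, with shared entries all summed and without AL 9 (range 0 to 1 as single libraries were left out).

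Of 698 recomputed values of named miRNAs 666 kept direction and side of the threshold, 17 were weaker, 10 stronger and 5 reversed. Of 144 recomputed exact permutation tests of the RT-qPCR set, adjusted over the 8, 121 stayed the same, 14 were weaker and 9 reversed. The weaker ones were all of miR-140-3p, which lost the threshold with most scalings and most left-out libraries. Its difference stayed negative, at −0.59 with upper-quartile factors and −0.66 with library totals alone. Values that reversed were near 0 or rested on 1 library. The log2 fold change of miR-96-5p ran from −0.29 (without CR 14) to 0.11 (without AL 12) and was 0.033 without CR 15 and 0.037 without CR 16, and its difference in log2 CPM ran from −0.31 (without CR 14) to 0.011 (without AL 12). That of miR-101a-3p was −0.00084 with upper-quartile factors and −0.087 with library totals; in log2 CPM it was −0.045, −0.115 and −0.048 with those 2 and with totals without the miR-1 family, ran from −0.089 (without AL 7) to 0.315 (without CR 15), and was −0.048 without CR 13, −0.066 without CR 16 and −0.048 without AL 7 and AL 11 together. miR-122-5p ran from −0.62 (without AL 8) to 0.176 (without AL 9) in log2 CPM. The difference in miR-1 family share ran from −1.18 (without AL 7) to 4.04 percentage points as single libraries were left out, that in total count from −3.02 to 4.46 M, and that in log2 TMM factor from −0.33 to 0.025. Of 741 recomputed list medians 18 moved by more than the spread between rats, 13 of them with library totals alone. No paired analysis was possible because the groups share no replicate numbers (7 to 12 against 13 to 18). Depth limits entries near 0.0669 CPM, where a count of 0 cannot be told from 3.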

Other observations

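A group of neighbouring miRNA genes within Clcn5 on the X chromosome, noticed after the values were seen and therefore not tested as a set, went mostly one way. Of 10 tested entries from miR-532, miR-188, miR-362, miR-501, miR-500 and miR-3560, 9 were lower in old CR, 5 at an unadjusted p under 0.05 (3.48% of all known entries were lower at that p), with a median log2 fold change of −0.47 against 0.01 for all known entries. miR-532-5p was the most abundant, at 37.8 ± 6.57 CPM in old AL and 29.2 ± 2.61 CPM in old CR (−0.37, SE 0.136), and miR-500-3p was at 1.01 ± 0.186 and 0.747 ± 0.0611 CPM (−0.43, SE 0.170). miR-3560 and miR-501-3p are reverse complements with nearly equal counts (the lower is 99.9% of the higher), so that they are 1 measurement, and both are among the 5. No member passed the test (edgeR adjusted p = 0.392 for the lowest).

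The host transcript of miR-99a also holds let-7c and a copy of miR-125b. Here the main strands did not move together. miR-99a-5p had a log2 fold change of 0.51 and let-7c-5p of 0.28, both at an unadjusted p under 0.05. miR-125b-5p was at 1602 ± 327 CPM in old AL and 1582 ± 350 CPM in old CR (−0.02, SE 0.181). let-7c-5p and miR-125b-5p each have a further gene elsewhere, so their levels are not those of this transcript alone. Among the opposite arms, miR-99a-3p was at 1.59 ± 0.629 and 1.77 ± 0.191 CPM (0.16, SE 0.250). let-7c-1-3p was at 0.230 ± 0.131 and 0.185 ± 0.0762 CPM (−0.33, SE 0.433). miR-125b-2-3p was at 37.3 ± 7.17 and 38.5 ± 9.96 CPM (0.04, SE 0.198).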
